A study of Mus musculus with 30 samples.

Results

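The genes described here are 33 glycolysis and hypoxia-inducible genes of the mouse, listed by name: enzymes of glycolysis, the transporters and regulators that feed it, and other genes that low oxygen raises. They were read from a table of log2 signals of 30 expression arrays, 1 probe set a gene, the one with the highest mean over all arrays among probe sets annotated with a single gene symbol. Of the 33 genes, 30 had such a probe set, and all 30 were bright enough to be tested, among 12674 tested genes of 18194 measured. Gpi1, Eno1 and Bnip3l were not analysed here. The 30 genes comprised 11 enzymes, 4 genes of transport and control, and 15 other hypoxia-inducible genes.

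Glycolysis splits glucose into pyruvate in the cytosol, and lactate dehydrogenase turns the pyruvate into lactate when it is not burned in mitochondria. In low oxygen, prolyl hydroxylases stop marking the transcription factor subunit HIF-1 alpha for destruction. HIF-1 then binds a short DNA core motif near its target genes, which include most glycolytic enzymes, the glucose transporter Slc2a1, the growth factor Vegfa and regulators of mitochondria. The factor p53 acts on the same metabolism from the other side, since several of its targets restrain glucose use.

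The cells were mouse embryonic fibroblasts taken from E13.5 embryos of C57BL/6 x 129SvJ mice of the genotype p53 LSL/LSL, in which a removable stop cassette keeps p53 off until Cre recombinase cuts it out. In the time course, cells received an adenovirus with Cre (AdenoCre, p53 restored) or with GFP (AdenoGFP, p53 still off) for 24 h, then 500 nM doxorubicin, a DNA-damaging drug, for 0, 1, 3, 6 or 9 h. It had 1 array per virus and time, 10 in all, and the 0 h arrays had no drug. In the lincP21KD experiment and the hnRNPKKD experiment every culture received AdenoCre for 24 h, an siRNA for 24 h and 100 nM doxorubicin for 13 h. The lincP21KD experiment had siP53 (3 arrays), siLincp21 against the transcript the labels call lincP21 (3 arrays) and a non-targeting pool, siControl (2 arrays). The hnRNPKKD experiment had siP53, siLincp21, siHnrnpk against the RNA-binding protein hnRNP-K, and siControl, 3 arrays each. The 2 viruses differ in Cre and GFP as well as in p53, and these cannot be told apart. All siRNA groups share p53 restoration and the drug, so there is no undamaged siRNA array. Nothing in the sources says that replicates came from separate cultures or embryos, so p-values measure the spread between arrays, which may be technical. In bulk RNA, fewer cells that express a gene and less RNA per cell cannot be told apart.

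The core motif of HIF binding, ACGTG read on either strand, was looked for in the 250 bases before each start site in RefSeq promoters (build GRCm38.p6), overlapping matches counted as 1. It lay before 1 or more start sites of 18 of the 28 tested genes with a promoter entry (64.3%), against 18.5% of all 27025 genes in the promoter table. That table also holds genes not tested here, and the list was made of glycolysis and hypoxia-inducible genes. These sets are thus unlike, and the gap between the shares is not read as a result. Among the genes lower with siHnrnpk, described further on, 9 of 12 with an entry held it (75%), and among the other tested genes 9 of 16 (56.2%). The windows below are those of genes lower with siHnrnpk, followed by the enzymes Ldha and Pgk1, which were not called there. They are shown as the sequence context of the genes on which the siHnrnpk comparison turns. Mxi1 and Vegfa also fell and held a match. Each is written 5′ to 3′ on the gene's strand, with matches in capitals.
Bnip3, chr7:138909579-138909644, minus strand: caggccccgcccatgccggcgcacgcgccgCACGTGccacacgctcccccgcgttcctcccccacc
Egln3, chr12:54204069-54204124, minus strand: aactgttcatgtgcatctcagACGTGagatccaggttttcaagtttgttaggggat
Ankrd37, chr8:45999851-45999886, minus strand: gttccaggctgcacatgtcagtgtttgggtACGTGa
Slc2a1, chr4:119108679-119108743, plus strand: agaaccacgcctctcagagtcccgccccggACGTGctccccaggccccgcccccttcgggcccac
Hk2, chr6:82774472-82774536, minus strand: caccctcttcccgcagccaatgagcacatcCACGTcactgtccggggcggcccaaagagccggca
Pfkfb3, chr2:11553955-11554019, minus strand: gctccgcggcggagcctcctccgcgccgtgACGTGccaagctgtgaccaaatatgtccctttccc
P4ha1, chr10:59323250-59323295, plus strand: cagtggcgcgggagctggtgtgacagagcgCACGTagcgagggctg
Ldha, chr7:46845740-46845803, plus strand: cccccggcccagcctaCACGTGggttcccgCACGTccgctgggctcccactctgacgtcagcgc
Pgk1, chrX:106186939-106187003, plus strand: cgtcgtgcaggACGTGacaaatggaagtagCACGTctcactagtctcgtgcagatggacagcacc

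In Bnip3 the match began 108 bases before the start site, in Slc2a1 36 and in Ankrd37 6, while in Egln3 it lay 229 bases away. Ldha and Pgk1 held 2 matches each in the windows shown. No match was found in these windows of Pdk1, Gapdh, Tpi1, Hk1, Pfkl, Pfkp, Aldoc, Pfkfb4, Kdm3a or Higd1a. A match describes the letters of a window and shows no binding, and the lack of one says nothing about the factor.

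The labels were checked first. Hnrnpk read 8.38, 8.34 and 9.94 on the siHnrnpk arrays against 12.68, 12.03 and 12.47 on the controls, with replicate 3 the least reduced. Cdkn1a, the cell-cycle inhibitor that p53 induces, was 3.85 ± 0.15 log2 higher with AdenoCre (SE; limma adjusted p = 3.5e-05), and with siP53 it was at -2.07 ± 0.11 in the lincP21KD experiment and -2.64 ± 0.18 in the hnRNPKKD experiment. All 12 fibroblast markers were measured above the dim limit of 4.54, among them Vim at 14.27 to 14.78 and Col1a1 at 12.57 to 14.16 over the 30 arrays. The dimmest reading was that of Lum, which ran from 4.56 to 9.61. Below the limit were 3 of 8 macrophage markers (Adgre1, Ptprc, Itgam), 5 of 6 endothelial markers and 2 of 7 epithelial markers, Cdh1 and Cldn4. The difference between the 3′ and 5′ control probe sets of Actb, which grows when RNA is degraded or short, ran from 0.17 to 1.14 log2 in the hnRNPKKD experiment, against 0.15 to 0.24 in the time course and 0.12 to 0.33 in the lincP21KD experiment. In the hnRNPKKD experiment siP53 replicates 2 and 3 stood farthest from the rest of their group, with an SD over genes of 0.44 and 0.35, against 0.13 to 0.22 for the other arrays.

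With siHnrnpk, 13 of the 30 genes fell, none rose and 17 did not pass the test, while 26.9% of all tested genes were called and 12.8% were called lower. Bnip3, a mitochondrial protein that marks mitochondria for removal, fell 3.21-fold. Egln3, the prolyl hydroxylase that is itself raised by HIF, fell 2.3-fold, and Pdk1, the kinase that blocks pyruvate entry into mitochondria, fell 1.79-fold. Among the 11 enzymes 3 fell (Hk1, Hk2 and Gapdh) and the median difference was -0.25 log2. Among the 4 transport and control genes 2 fell, with a median of -0.35, and among the 15 other genes 8 fell, with a median of -0.37. The median over all tested genes was 0.00 (-0.001), and 25 of the 30 differences were negative. The difference between enzymes and other genes was not tested.

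**Figure D1:**
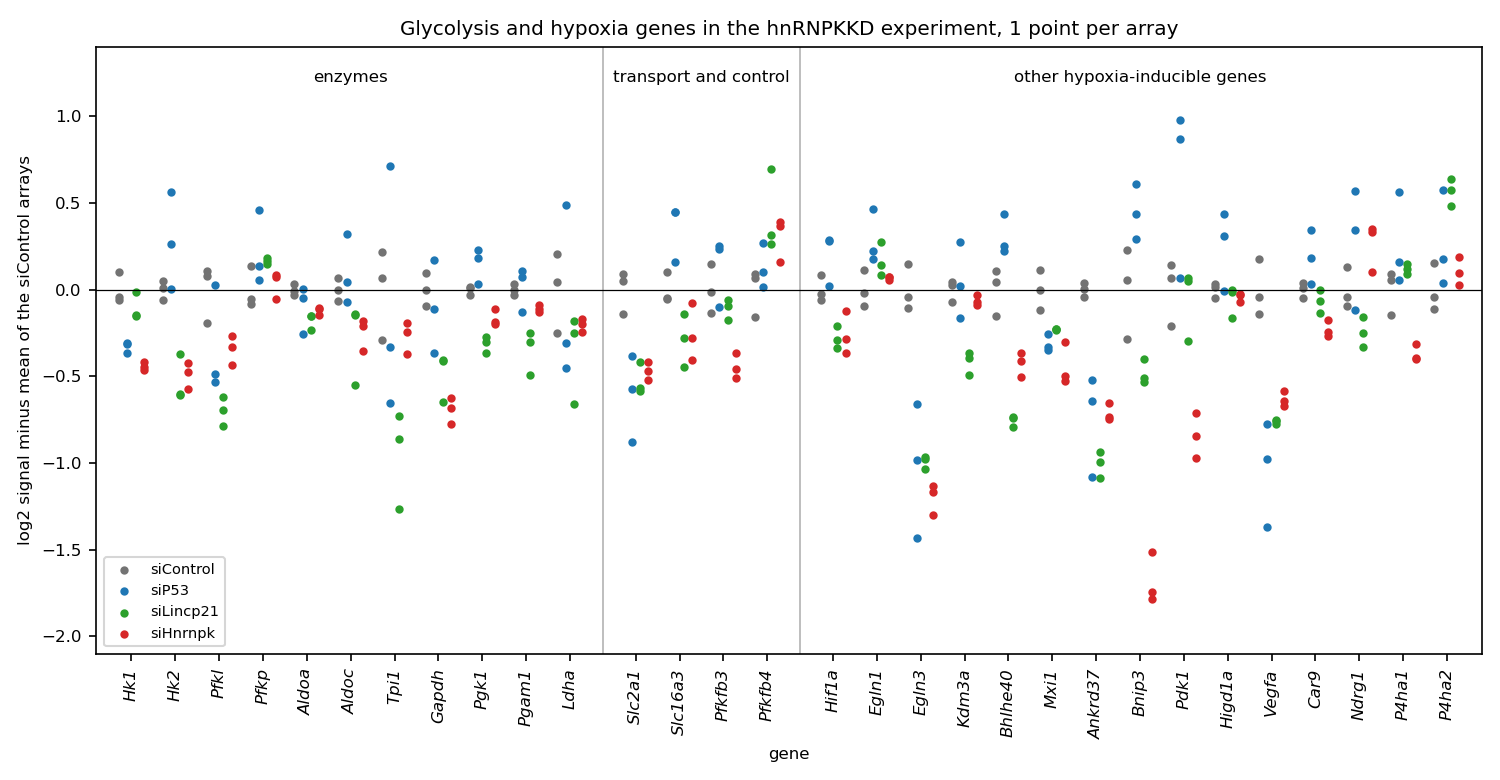
Log2 signal of each of the 30 genes on the 12 hnRNPKKD arrays, minus the mean of the 3 siControl arrays for that gene, with 1 point per array coloured by siRNA and genes grouped by role. Bnip3 lies between 1.5 and 1.8 log2 below the control mean on all 3 siHnrnpk arrays, Egln3, Ankrd37, Slc2a1 and Vegfa lie below it with all 3 targeting siRNAs, and most enzymes lie closer to the control mean than Bnip3 with siHnrnpk.

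Bnip3 read 10.49, 11.002 and 10.83 on the control arrays and 9.03, 8.99 and 9.26 on the siHnrnpk arrays. Every siHnrnpk array was more than 1 log2 unit below every control array. The difference was -1.68 ± 0.13 (SE, n = 3 against 3; limma adjusted p = 4.46e-06), the smallest p of the 30 genes. Pdk1 read 7.37, 7.03 and 7.30 with control siRNA and 6.26, 6.39 and 6.52 with siHnrnpk, with no overlap, a difference of -0.84 ± 0.20 (adjusted p = 0.00824). Its other probe sets above the limit gave -0.53 and -0.65. Higd1a, a small protein of the inner mitochondrial membrane, differed by -0.04 ± 0.11 (adjusted p = 0.824), although its second probe set gave -0.54.

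Among the genes of oxygen sensing and transcription, Egln3 read 8.82, 8.63 and 8.57 in controls and 7.50, 7.54 and 7.37 with siHnrnpk. The groups lay about 1 log2 unit apart, and the difference was -1.2 ± 0.16 (adjusted p = 0.000125). A second probe set of Egln3 gave -0.37, in the same direction but smaller. Ankrd37, an ankyrin repeat protein known as a HIF target, read 7.77, 7.74 and 7.69 in controls and 7.08, 6.99 and 6.98 with siHnrnpk. Its difference was -0.71 ± 0.12 (adjusted p = 0.00099), with tight groups on both sides. Bhlhe40, a repressor of transcription that also sets the circadian clock, fell from 9.76, 9.82 and 9.56 to 9.21, 9.35 and 9.31 (-0.43 ± 0.10; adjusted p = 0.00524). Mxi1, an antagonist of Myc, fell from 9.65, 9.54 and 9.42 to 9.24, 9.01 and 9.04 (-0.44 ± 0.09; adjusted p = 0.00307). Hif1a itself, the oxygen-regulated subunit, was at -0.26 ± 0.10 (adjusted p = 0.0797), and Egln1, the main prolyl hydroxylase, at 0.07 ± 0.10. Kdm3a, a histone demethylase, was at -0.07 ± 0.11. None of these 3 passed the test.

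Among secreted and matrix genes, Vegfa, which drives vessel growth, read 9.08, 8.76 and 8.86 in controls and 8.23, 8.26 and 8.31 with siHnrnpk. The ranges did not meet, and the difference was -0.63 ± 0.13 (adjusted p = 0.00363). P4ha1, a subunit of the enzyme that hydroxylates collagen, fell by 0.37 ± 0.12 (adjusted p = 0.0396). Its call was the least firm, since it was lost under 10 of 21 alternatives, with adjusted p up to 0.201. The related subunit P4ha2 was at 0.10 ± 0.13. Car9, a carbonic anhydrase at the cell surface, lay below the dim limit on all 6 arrays (4.18 to 4.48), so no difference is read from it. Ndrg1, a stress-responsive protein, was at 0.26 ± 0.15 (adjusted p = 0.238).

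Of the 11 enzymes 3 were called. Gapdh, which makes 1,3-bisphosphoglycerate, read 13.98, 14.18 and 14.08 in controls and 13.30, 13.40 and 13.45 with siHnrnpk. That fall of 0.69 ± 0.13 (adjusted p = 0.00151) was the largest among the enzymes, and the other 2 Gapdh control probe sets gave -0.59 and -0.71. Gapdh is widely used as a reference gene of constant level. Hk1 and Hk2, the hexokinases that trap glucose in the cell, fell by 0.44 ± 0.08 (adjusted p = 0.0016) and 0.49 ± 0.13 (adjusted p = 0.0126). Hk1 read 11.14, 11.002 and 10.98 in controls and 10.63, 10.59 and 10.58 with siHnrnpk. Hk2 read 9.49, 9.45 and 9.38 in controls and 9.02, 8.87 and 8.97 with siHnrnpk, so both hexokinases were separated from the controls on every array. The remaining 8 enzymes did not pass. Their differences ran from -0.34 ± 0.14 for Pfkl, the liver-type phosphofructokinase (adjusted p = 0.0925), to 0.03 ± 0.11 for Pfkp, the platelet-type one. Ldha, lactate dehydrogenase A, was at -0.21 ± 0.21 and Tpi1, triose phosphate isomerase, at -0.27 ± 0.28, both with wide errors. Aldoa, Aldoc, Pgk1 and Pgam1 were at -0.12, -0.25, -0.17 and -0.11.

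Of the transport and control genes, Slc2a1 (GLUT1) fell by 0.47 ± 0.12 (adjusted p = 0.0121). Its arrays read 12.52, 12.29 and 12.48 in controls and 12.01, 11.91 and 11.96 with siHnrnpk. Pfkfb3, which makes the activator of phosphofructokinase, fell by 0.45 ± 0.11 (adjusted p = 0.0101). It read 5.49, 5.21 and 5.33 in controls and 4.83, 4.88 and 4.98 with siHnrnpk, again without overlap. The siHnrnpk readings lay near the array medians of this experiment, 4.83 to 4.91, so the size of this fall is uncertain. Uncalled genes such as Pfkl, Pgk1 and Pgam1 did not overlap either, so separation of the arrays alone does not set the called genes apart. Pfkfb4, its testis-type relative, was at 0.31 ± 0.13 and Slc16a3, the lactate exporter MCT4, at -0.25 ± 0.12. Slc16a3 was near the dim limit of 4.54 in this experiment, at 4.14 to 4.64 on these 6 arrays. Without siHnrnpk replicate 2, Hk2 (-0.45; adjusted p = 0.0559) and Slc2a1 (-0.44; adjusted p = 0.0501) missed the threshold. With the mean of a gene's probe sets Hk1 (adjusted p = 0.0507), Pfkfb3 (0.132) and Mxi1 (0.136) missed it. Gapdh, Egln3, Bhlhe40, Ankrd37, Bnip3, Pdk1 and Vegfa kept their call under all 21 alternatives run.

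Levels of several genes on the hnRNPKKD arrays moved with the Actb end difference. On the siP53 array with the smallest difference (0.17) Tpi1 read 12.69, and on the siP53 array with the largest (1.14) it read 11.32. Bnip3 went the other way on these arrays, from 11.07 to 11.39, while among controls it was lowest, 10.49, on the array with the largest difference. The siLincp21 array with the largest difference in its group (0.76) had the lowest Tpi1 of all 12 arrays, 10.71. The siHnrnpk arrays lay at 0.30 to 0.36 and the controls at 0.32 to 0.53. With that difference as a covariate, 19 of the 30 genes were called with siHnrnpk. The share of all tested genes called with the covariate is not given here, so the larger count is not read as particular to these genes. Bnip3 was then at -1.67, Egln3 at -1.15 and Gapdh at -0.73, and 6 more genes passed. Tpi1 (-0.37), Ldha (-0.28), Pfkl (-0.38), Hif1a (-0.24) and Car9 (-0.25, though below the dim limit on all 6 arrays) were lower and Ndrg1 (0.31) was higher, so that 1 of the 19 rose. Among markers of other cell types, the keratin Krt18 was at -2.91 ± 0.13 and the macrophage receptor Csf1r at -0.71 ± 0.17 with siHnrnpk, while the summed markers of these types overlapped (epithelial 1240 to 1380 against 1270 to 1470, macrophage 731 to 760 against 745 to 872). Their part in the siHnrnpk differences was not tested.

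**Figure D2:**
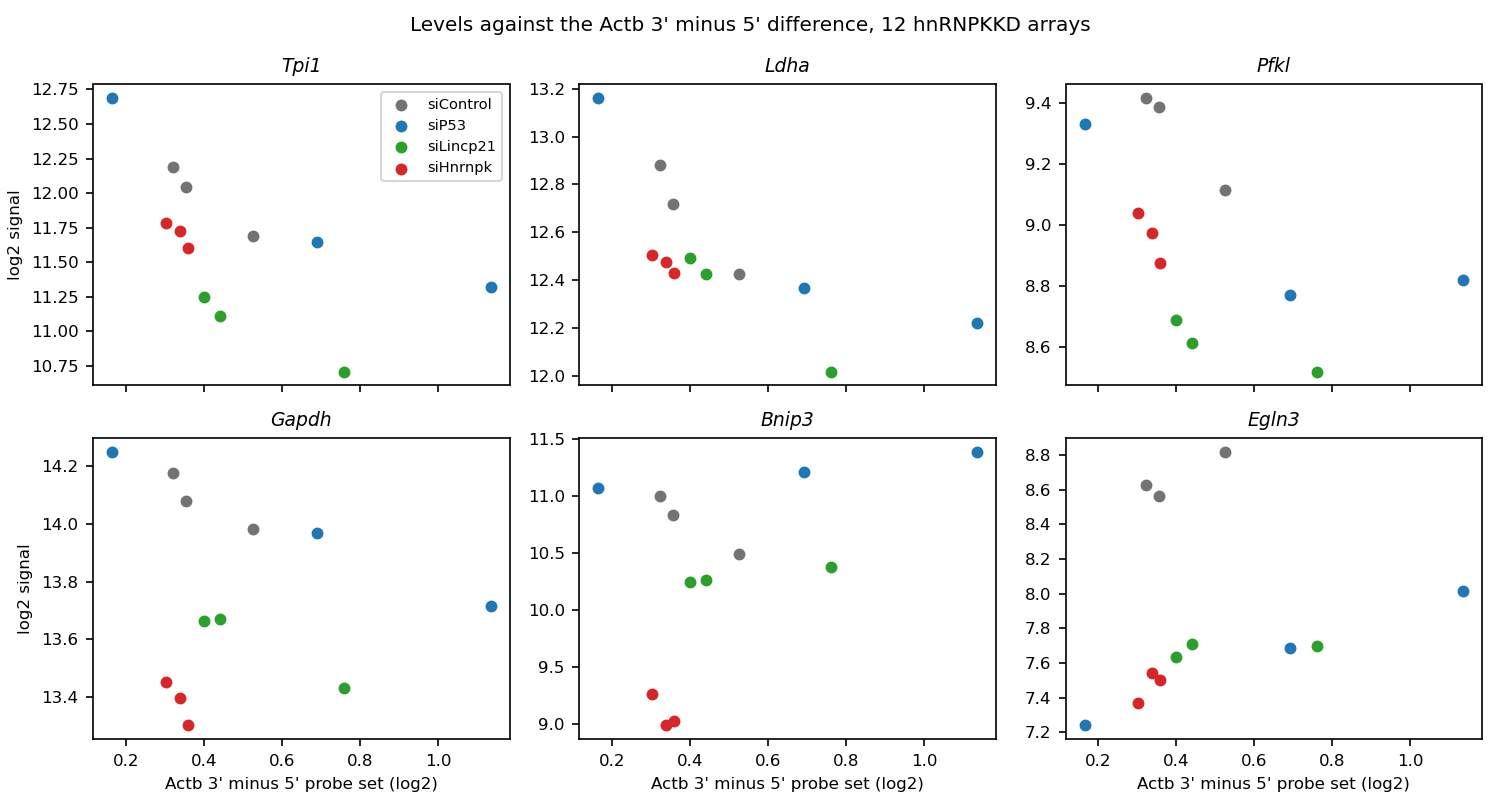
Log2 signal of 6 genes against the log2 difference between the 3′ and 5′ probe sets of Actb, 1 point for each of the 12 hnRNPKKD arrays, coloured by siRNA. Within each siRNA group Tpi1, Ldha and Gapdh are lowest on the array with the largest Actb difference, and the 3 siHnrnpk points of Bnip3 and Egln3 sit apart from the controls at a like Actb difference.

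Other genes of the same pathways were taken from lists of related genes. Their counts are to be read against the 26.9% of all tested genes that were called, 14.1% higher and 12.8% lower. Of 18 further tested glycolysis genes, 2 rose and 3 fell with siHnrnpk, with a median of -0.06, a share near that of all genes. Slc2a3, the high-affinity glucose transporter GLUT3, rose by 1.05 ± 0.12 (adjusted p = 4.25e-05), opposite to Slc2a1, and the lactate and pyruvate transporter Slc16a1 rose by 0.56 ± 0.10. Bpgm, the bisphosphoglycerate mutase, fell by 0.81 ± 0.09, and Tigar, a p53 target that lowers fructose-2,6-bisphosphate, fell by 1.26 ± 0.19 (adjusted p = 0.000316). Of 31 further hypoxia genes 2 rose and 8 fell, with a median of -0.11. The falls were led by Tfrc, the transferrin receptor (-1.19 ± 0.10), Angptl4, an inhibitor of lipoprotein lipase (-1.10 ± 0.11), Ak4, a mitochondrial adenylate kinase (-0.99 ± 0.15), and Stc2, a secreted glycoprotein (-0.61 ± 0.12). Of 23 genes of pyruvate oxidation and the citric acid cycle 1 rose, the pyruvate dehydrogenase phosphatase Pdp1 (0.28 ± 0.09), and 2 fell, the malate dehydrogenase Mdh2 (-0.68 ± 0.12) and the isocitrate dehydrogenase subunit Idh3a (-0.32 ± 0.09), a share below that of all genes. Of 6 pentose phosphate genes 2 rose, Rpia (0.92 ± 0.13) and Rpe (0.61 ± 0.12), which interconvert pentose phosphates, and none fell.

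The other siRNAs of the same experiment give the background against which siHnrnpk can be read. They share the 3 control arrays, so the values are given side by side and their likeness is not used as evidence. With siLincp21, 15 of 30 genes were called, 2 up and 13 down, where 29.0% of all tested genes were called (17.2% higher, 11.8% lower). Among the 11 enzymes 6 fell, with a median of -0.35 log2. Among the 15 other hypoxia genes 6 fell and 1 rose, with a median of -0.25. The 31 further hypoxia genes did not share this direction with siLincp21: 9 rose and 6 fell, with a median of 0.217. Of the 18 further glycolysis genes 2 rose and 2 fell, with a median of -0.075. With siP53, 11 genes were called, 5 up and 6 down, where 38.6% of all tested genes were called (19.3% higher, 19.2% lower). Only 1 of 11 enzymes fell with siP53, Hk1, and their median was -0.09. Among the 15 other genes 4 rose and 4 fell, with a median of 0.24. With the Actb covariate these medians were 0.08 for the enzymes, on the other side of 0, and 0.13 for the other genes.

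With siLincp21 the enzymes Pfkl, Hk2, Gapdh, Pgk1, Pgam1 and Tpi1 fell. Pfkl read 8.61, 8.69 and 8.52 with siLincp21 against 9.11, 9.42 and 9.39 in controls (-0.70 ± 0.14; adjusted p = 0.00247). Tpi1 had the largest enzyme difference, -0.95 ± 0.28 (adjusted p = 0.0206), with 11.11, 11.25 and 10.71 against 11.69, 12.19 and 12.04. Tpi1 (-0.80; adjusted p = 0.0858), Gapdh (-0.41; adjusted p = 0.0564) and Pgam1 (-0.27; adjusted p = 0.0702) lost the call without siLincp21 replicate 3, the array with the large Actb end difference, and Pgk1 lost it without replicate 1 (adjusted p = 0.0523). Tpi1 also lost it without siControl replicate 2 (adjusted p = 0.0763) or 3 (0.0631), and Gapdh with the mean of probe sets (0.0533). Pfkl and Hk2 kept theirs under all alternatives run. With the Actb covariate all 6 remained called, Tpi1 at -0.76 and Hk2 at -0.60. Outside the enzymes, Ankrd37 fell by 1.00 ± 0.12 (adjusted p = 8e-05), Bhlhe40 by 0.76 ± 0.10, Egln3 by 0.99 ± 0.16 and Vegfa by 0.76 ± 0.13. P4ha2 rose by 0.57 ± 0.13 (adjusted p = 0.00548), and Pfkfb4 rose by 0.43 ± 0.13. Slc2a1 fell by 0.52 ± 0.12, Hk2 by 0.53 ± 0.13 and Kdm3a by 0.42 ± 0.11. Bnip3 fell by 0.48 ± 0.13 (adjusted p = 0.0166), a call that was lost without any 1 of 4 arrays, with adjusted p up to 0.0735. The 12 fibroblast markers summed to a linear signal of 85800 to 86400 with siLincp21 and 84700 to 86800 with siP53 against 70400 to 74100 in controls, and the part of this in the differences was not tested.

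With siP53 the largest falls were those of Vegfa (-1.04 ± 0.13; adjusted p = 6.15e-05), Egln3 (-1.03 ± 0.16), Ankrd37 (-0.75 ± 0.12) and Slc2a1 (-0.61 ± 0.12; adjusted p = 0.00152). Vegfa read 7.92, 7.53 and 8.13 with siP53, below every control array. Hk1 fell by 0.33 ± 0.08 and Mxi1 by 0.31 ± 0.09. In the other direction Bnip3 rose by 0.45 ± 0.13 (adjusted p = 0.0187) and Bhlhe40 by 0.31 ± 0.10 (adjusted p = 0.0231). The 3 remaining calls, for Pdk1, Slc16a3 and Egln1, were rises of 0.29 to 0.64, with Slc16a3 near the dim limit in controls (4.49 to 4.64). Pdk1 read 8.10, 7.30 and 8.21 with siP53 against 7.37, 7.03 and 7.30 in controls, and replicate 2 overlapped them. On replicate 2 Tpi1 was 12.69 against 11.65 and 11.32 on the others, and Ldha 13.16 against 12.37 and 12.22, while Hk1 was 10.68 against 10.73 and 10.73. Without that array 17 genes were called, and without siControl replicate 3 only 7. The share of all tested genes called in these fits is not given here, so the counts show only how the calls hold. Of the 11 calls Hk1, Slc2a1, Egln3, Ankrd37 and Vegfa kept theirs under every alternative run. The summed linear signal of 8 macrophage markers was 236 to 371 with siP53 against 745 to 872 in controls, led by Cd68 and Cd14, and 7 epithelial markers summed to 667 to 982 against 1270 to 1470. The part of these genes in the siP53 differences was not tested.

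In the direct contrasts between siRNAs the control arrays enter only the estimate of the spread, which all groups of the experiment share. A difference here can come from either siRNA. Against siP53, 13 of 30 genes were lower with siHnrnpk and 1 was higher. Of all tested genes 45.3% were called (22.9% higher, 22.5% lower). Bnip3 was at -2.13 ± 0.13 (adjusted p = 8.99e-08) and Pdk1 at -1.48 ± 0.20 (adjusted p = 6.53e-05), and these were the 2 largest differences among the 30 genes. Hk2 (-0.77 ± 0.13), Bhlhe40 (-0.73 ± 0.10), P4ha1 (-0.63 ± 0.12), Gapdh (-0.59 ± 0.13) and Pfkfb3 (-0.58 ± 0.11) followed. Pfkfb3 was dim with siHnrnpk (4.83 to 4.98), near the array medians of 4.83 to 4.91, so the size of its difference is uncertain. Hif1a, Pgk1 and Higd1a were also lower, though Higd1a averaged 11.26 with siHnrnpk, 11.55 with siP53 and 11.30 in controls. The other 3 calls, for Slc16a3, Car9 and Aldoc, are given no size, since the siHnrnpk arrays were too dim. There Slc16a3 (4.14 to 4.46) and Car9 (4.18 to 4.27) lay below the dim limit of 4.54 on all arrays and Aldoc (4.39 to 4.57) around it, and these genes passed the filter through the other experiments. Vegfa was the gene on the other side, 0.41 ± 0.13 higher with siHnrnpk (adjusted p = 0.0246), a call lost without siP53 replicate 2 and without each siHnrnpk array, with adjusted p up to 0.0733. The calls of Aldoc and Higd1a were lost under 12 of 20 and 14 of 21 alternatives. The fibroblast markers summed to 68200 to 72400 with siHnrnpk against 84700 to 86800 with siP53. The macrophage markers summed to 731 to 760 against 236 to 371, and the epithelial markers to 1240 to 1380 against 667 to 982. Their part in these differences was not tested.

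Against siLincp21, siHnrnpk differed in 9 genes, 3 higher and 6 lower, where 27.6% of all tested genes were called (12.2% higher, 15.4% lower). Bnip3 was lower by 1.2 ± 0.13 (adjusted p = 3.82e-05), Pdk1 by 0.78 ± 0.20 (adjusted p = 0.0119), P4ha1 by 0.49 ± 0.12, P4ha2 by 0.46 ± 0.13 and Hk1 by 0.34 ± 0.08. P4ha2 averaged 9.26 with siHnrnpk, 9.72 with siLincp21 and 9.15 in controls, so it was not below control with siHnrnpk. Pfkfb3 was lower by 0.34 ± 0.11 (adjusted p = 0.0397), a size that is uncertain, since Pfkfb3 was dim with siHnrnpk (4.83 to 4.98). Bhlhe40 (0.33 ± 0.10), Ndrg1 (0.51 ± 0.15) and Kdm3a (0.35 ± 0.11) were higher with siHnrnpk. Of the 11 enzymes 1 differed, Hk1, and Tpi1 was 0.68 higher without passing the test. Bnip3 was the single gene of the 9 that kept its call under every alternative run. The count fell to 3 without siLincp21 replicate 1 and to 4 without siHnrnpk replicate 1 or 2. It rose to 14 with the Actb covariate. The fibroblast markers summed to 68200 to 72400 with siHnrnpk against 85800 to 86400 with siLincp21, while the macrophage sums overlapped (731 to 760 against 671 to 875). The part of these markers in the differences between the siRNAs was not tested.

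The lincP21KD experiment repeated siP53 and siLincp21 with fewer control arrays. With siP53, 4 of 30 genes were called, all higher, where 12.7% of all tested genes were called (7.01% higher, 5.74% lower). Car9 rose by 0.47 ± 0.10 (adjusted p = 0.0102), Pfkp by 0.33 ± 0.09 (adjusted p = 0.0344), P4ha2 by 0.30 ± 0.08 (adjusted p = 0.0456) and Slc16a3 by 0.36 ± 0.10 (adjusted p = 0.0488). Car9 and Slc16a3 were dim for these arrays, whose medians were 5.55 to 5.66. Controls read 5.08 to 5.28 for Car9 and 4.96 to 5.07 for Slc16a3, so the sizes of these rises are uncertain. Car9 read 5.56, 5.76 and 5.64 with siP53 against 5.28 and 5.08 in controls. The groups did not overlap, but neither did those of uncalled genes such as Hk1, Tpi1 and Gapdh. The median of the 11 enzymes was 0.09 and that of the 15 other genes 0.18. None of the 4 calls was kept under every alternative, and without siControl replicate 2 no gene of the 30 was called. The macrophage markers summed to 503 to 541 with siP53 against 741 to 750 in controls, with Cd68 at -1.81 ± 0.14, and the fibroblast markers to 110000 to 117000 against 101000 to 106000, and the part of this in the result was not tested.

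With siLincp21, 3 genes were called there, 1 higher and 2 lower, where 11.9% of all tested genes were called (7.47% higher, 4.39% lower). Slc2a1 read 11.45, 11.55 and 11.41 with siLincp21 against 11.97 and 11.80 in controls, a fall of 0.42 ± 0.10 (adjusted p = 0.0207). Egln3 read 7.10, 7.12 and 7.05 against 7.82 and 7.50, a fall of 0.57 ± 0.10 (adjusted p = 0.00622). P4ha2 read 10.43, 10.33 and 10.27 against 9.72 and 9.85, a rise of 0.56 ± 0.08 (adjusted p = 0.00334). The siLincp21 and control arrays of these 3 genes did not overlap. Those of uncalled genes such as Hk1, Tpi1 and Ldha did not overlap either, so with so few arrays this adds nothing to the calls. The fibroblast markers summed to 114000 to 120000 against 101000 to 106000 in controls, with 4 of 12 higher, and the epithelial markers to 539 to 593 against 631 to 658. Their part in the result was not tested. None of the 11 enzymes passed the test of limma, also at an unadjusted p under 0.05, and their median was -0.06. The gene next nearest to the threshold was Pfkfb4, at -0.21 ± 0.08 (adjusted p = 0.107). Without siControl replicate 1 none of the 3 calls held, with adjusted p of 0.201 for Slc2a1, 0.074 for Egln3 and 0.0571 for P4ha2.

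**Figure D3:**
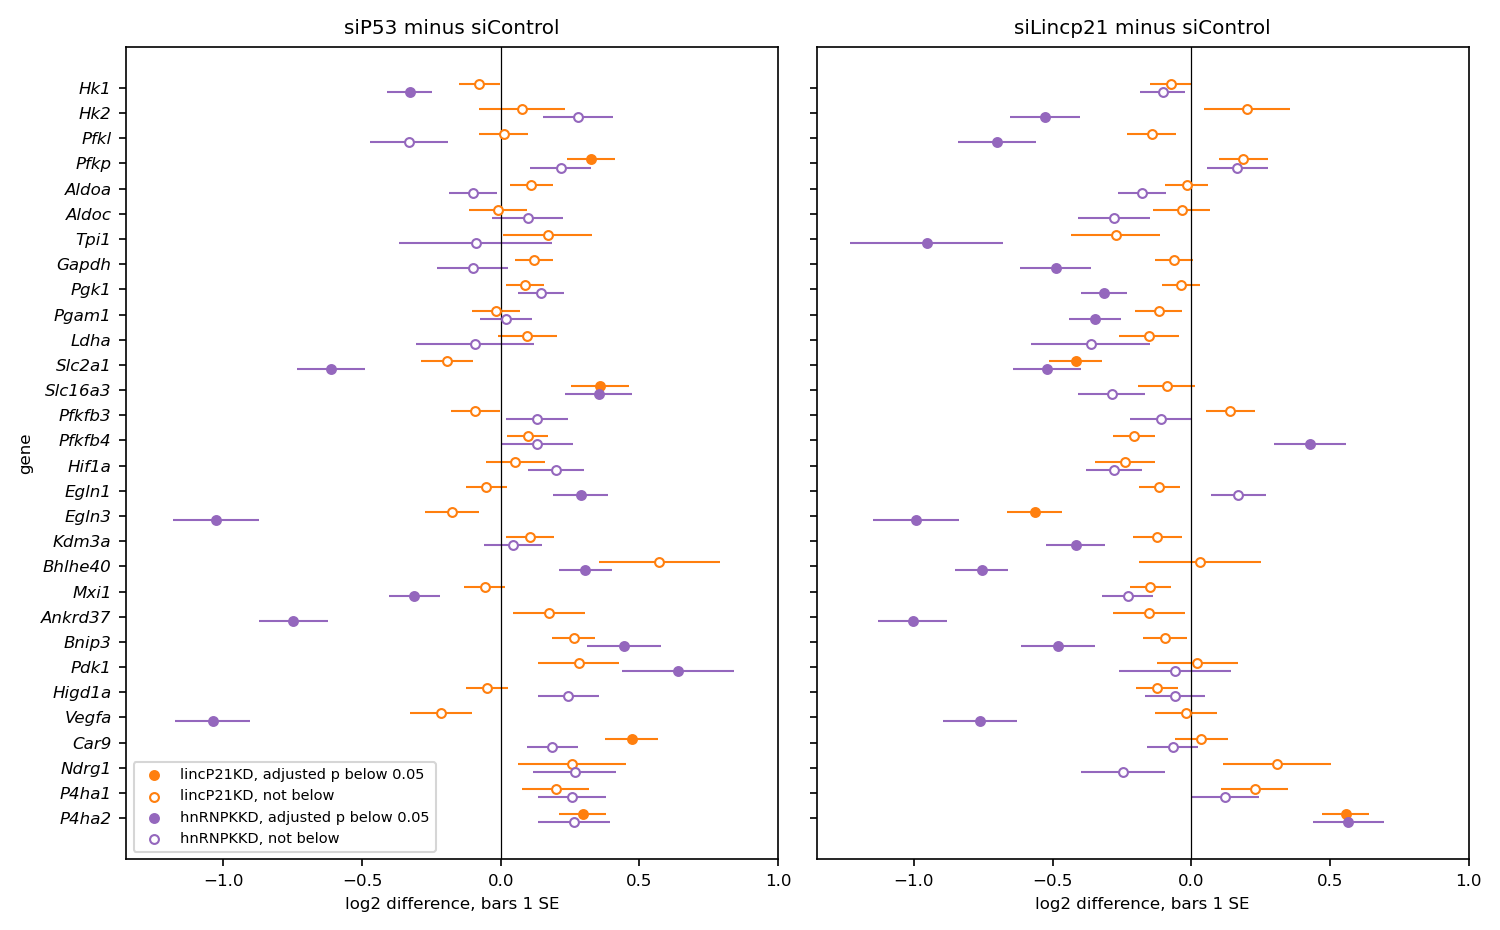
Log2 difference from siControl for the 30 genes, with siP53 on the left and siLincp21 on the right, in the lincP21KD experiment (orange) and the hnRNPKKD experiment (purple). Bars are 1 SE and filled points passed an adjusted p of 0.05. Ankrd37 and Vegfa lie far lower in the hnRNPKKD experiment with either siRNA, while Slc2a1 and P4ha2 lie close together with siLincp21. Ankrd37 was dim in the lincP21KD experiment, at 5.34 to 5.93.

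The 2 experiments have their own controls, so the difference between their effects could be tested. The effect of siP53 differed in 3 of 30 genes, all lower in the hnRNPKKD experiment, where 14.5% of all tested genes differed (7.14% higher, 7.35% lower). Ankrd37 was at -0.75 ± 0.12 in the hnRNPKKD experiment and 0.18 ± 0.13 in the lincP21KD experiment, a difference of -0.92 ± 0.19 (adjusted p = 0.00343). Its controls read 7.69 to 7.77 in the hnRNPKKD experiment. In the lincP21KD experiment they read 5.58 to 5.64, no higher than the array medians of 5.55 to 5.66. Whether so dim a gene could show a fall there was not tested. Vegfa was at -1.04 ± 0.13 and -0.21 ± 0.11 (difference -0.83 ± 0.19; adjusted p = 0.00656). Egln3 was at -1.03 ± 0.16 and -0.18 ± 0.10 (difference -0.85 ± 0.21; adjusted p = 0.00928, and 0.084 without lincP21KD siControl replicate 2). None of the 11 enzymes differed, and 1 did at an unadjusted p under 0.05. Without siP53 replicate 2 of the hnRNPKKD experiment 9 genes differed.

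The effect of siLincp21 differed in 5 genes, 1 higher and 4 lower, where 8.14% of all tested genes differed (4.63% higher, 3.51% lower). Ankrd37 fell in the hnRNPKKD experiment by 1.00 ± 0.12 and was at -0.15 ± 0.13 in the lincP21KD experiment (difference -0.85 ± 0.19; adjusted p = 0.00896). In the latter it was dim, at 5.34 to 5.53 with siLincp21 and 5.58 to 5.64 in controls. Vegfa (difference -0.74 ± 0.19), Hk2 (-0.73 ± 0.21) and Bhlhe40 (-0.79 ± 0.24) were lower in the hnRNPKKD experiment, and Pfkfb4 (0.63 ± 0.16) was higher. All 11 enzymes had a more negative value in the hnRNPKKD experiment, with a median difference of -0.24 against -0.001 over all tested genes. The share of all tested genes with a negative difference is not given here. Hk2 was the 1 enzyme that passed, and its call was lost under 10 of 28 alternatives. Without lincP21KD siControl replicate 2 none of these 5 differences passed. The 2 experiments also differ in array median (4.83 to 4.91 in the hnRNPKKD experiment, 5.55 to 5.66 in the lincP21KD experiment) and in the Actb end difference, and experiment and these features cannot be told apart.

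In the time course Pdk1, Aldoc, Hif1a and Bnip3 were lower with AdenoCre, and most enzymes did not pass the test. Between viruses, with time as a block, 7 of 30 genes were called, 2 higher and 5 lower with AdenoCre, where 19.1% of all tested genes were called (12.9% higher, 6.24% lower). Pdk1 was lower by 1.26 ± 0.13 (n = 5 times; adjusted p = 0.0012), a 2.39-fold difference. With 1 array per virus and time, the SE here reflects how the difference varied over the 5 times, and not the spread between repeated infections. Hif1a was lower by 0.63 ± 0.12 (adjusted p = 0.0108), Aldoc by 0.64 ± 0.09 (adjusted p = 0.0036) and Bnip3 by 0.53 ± 0.10 (adjusted p = 0.0111). Of the 11 enzymes 1 rose and 1 fell, with a median of -0.06, and of the 15 other genes 1 rose and 3 fell, with a median of -0.10. The median over all tested genes was 0.04.

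Pdk1 read 9.57, 9.84, 9.83, 9.88 and 9.18 at 0, 1, 3, 6 and 9 h with AdenoGFP, and 8.78, 8.76, 8.60, 8.29 and 7.59 with AdenoCre. It was lower with AdenoCre at every time, at -0.80 before the drug and -1.59 at 9 h, and the viruses did not overlap. Hif1a read 12.003, 12.29, 11.95, 12.18 and 11.97 with AdenoGFP and 11.70, 11.25, 11.42, 11.36 and 11.55 with AdenoCre, without overlap between the viruses. Its other probe sets above the limit gave -0.40, -0.17 and -0.74. Aldoc, the brain-type aldolase, read 6.42, 6.88, 6.72, 6.196 and 6.11 with AdenoGFP and 5.55, 6.28, 6.18, 5.76 and 5.36 with AdenoCre. Bnip3 read 10.50, 10.93, 10.63, 10.18 and 10.53 with AdenoGFP and 10.18, 10.58, 10.14, 9.57 and 9.65 with AdenoCre. Aldoc and Bnip3 were lower with AdenoCre at all 5 times, though the ranges over time overlapped.

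Hk1 was the enzyme that was higher with AdenoCre. It read 9.90, 9.77, 9.82, 9.57 and 10.00 with AdenoGFP and 9.99, 10.21, 10.14, 10.30 and 10.37 with AdenoCre (0.39 ± 0.10; adjusted p = 0.0317). Ankrd37 read 7.04, 6.57, 7.38, 6.72 and 6.80 with AdenoGFP and 7.30, 7.28, 7.51, 7.17 and 7.14 with AdenoCre (0.38 ± 0.10; adjusted p = 0.034). Pfkfb3 read 7.49, 7.54, 7.88, 7.32 and 7.27 with AdenoGFP and 7.20, 7.31, 7.43, 7.04 and 7.06 with AdenoCre (-0.29 ± 0.08; adjusted p = 0.0356). These 3 genes differed in 1 direction at all 5 times. Ankrd37 and Pfkfb3 lost the call when any single time was left out, with adjusted p of 0.0552 to 0.0907 and 0.0561 to 0.151. Hk1 lost it without the 1, 3, 6 or 9 h pair, with adjusted p up to 0.0877. Pdk1 and Hif1a kept theirs under all 13 alternatives run, and Aldoc and Bnip3 lost theirs only without the time block. The fibroblast markers summed to 106000 to 114000 with AdenoCre and 114000 to 122000 with AdenoGFP. The summed epithelial markers were 678 to 1440 with AdenoCre and 501 to 662 with AdenoGFP. Of the 5 tested ones, however, 1 rose and 2 fell, with a median of -0.2. Of 5 tested macrophage markers 2 rose and none fell, and Cd14 and Cd68 were 1.29 ± 0.28 and 0.81 ± 0.17 higher. The part of these markers in the differences was not tested.

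**Figure D4:**
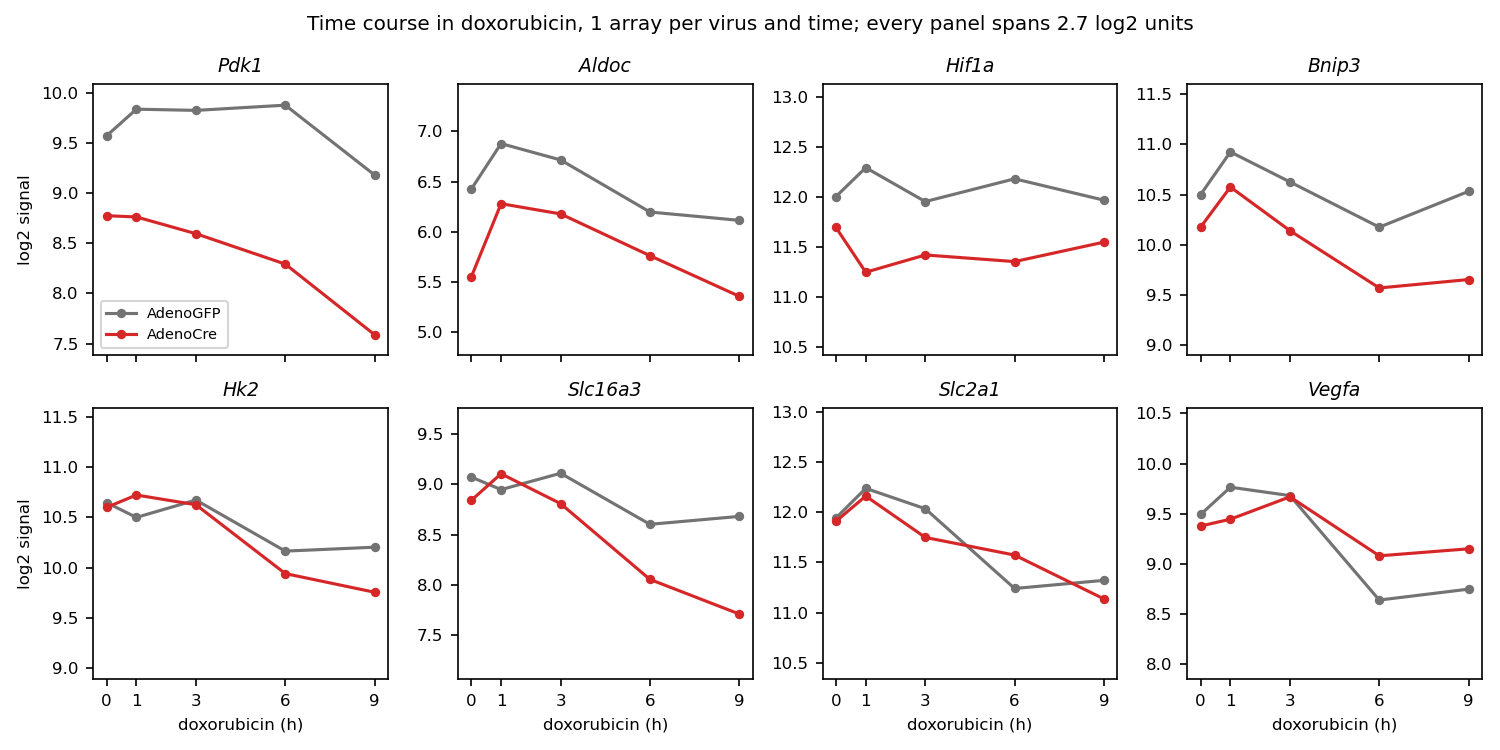
Log2 signal of 8 genes over 9 h of doxorubicin in AdenoGFP (grey) and AdenoCre (red) cells, 1 array per point. Pdk1, Aldoc, Hif1a and Bnip3 are lower with AdenoCre at all 5 times, and Slc16a3 reaches 7.71 at 9 h with AdenoCre against 8.68 with AdenoGFP.

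Over the 9 h of doxorubicin, 3 of 30 genes fell with AdenoCre, where 5.4% of all tested genes had a called slope (3.95% rising, 1.45% falling). Slc16a3 fell by 0.15 ± 0.02 log2 per hour (adjusted p = 0.00765), Pdk1 by 0.13 ± 0.03 (adjusted p = 0.0301) and Hk2 by 0.11 ± 0.02 (adjusted p = 0.0204). Slc2a1 was next, at -0.10 ± 0.03 (adjusted p = 0.07). Slc16a3 read 8.84, 9.11, 8.81, 8.05 and 7.71 at 0, 1, 3, 6 and 9 h with AdenoCre, so the fall came after 3 h. With AdenoGFP it read 9.07, 8.95, 9.11, 8.60 and 8.68. Hk2 read 10.60, 10.72, 10.63, 9.94 and 9.75 with AdenoCre and 10.65, 10.50, 10.67, 10.16 and 10.20 with AdenoGFP. None of the 30 slopes was called without the 9 h pair, nor without the 1 h pair, where limma gave Slc16a3 an adjusted p of 0.114 and 0.059, and the slopes without the 9 h pair were -0.15 for Slc16a3, -0.12 for Hk2 and -0.08 for Pdk1.

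With AdenoGFP limma called no slope among the 30 genes, and 4 had an unadjusted p under 0.05, where 0.00789% of all tested genes were called. Vegfa (-0.12 ± 0.03) and Slc2a1 (-0.10 ± 0.03) had the smallest adjusted p, 0.229 each. Slc2a1 read 11.94, 12.24, 12.04, 11.24 and 11.32 with AdenoGFP and 11.91, 12.16, 11.75, 11.57 and 11.14 with AdenoCre, lower late in the course in both. The test of the difference between slopes called none of the 30 genes, with 1 at an unadjusted p under 0.05 (Slc16a3, -0.10 ± 0.03 per hour; adjusted p = 0.415). It called 0.181% of all tested genes, so the falls with AdenoCre are not shown to differ from those with AdenoGFP.

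Of the related gene lists in the time course, where 19.1% of all tested genes were called, 18 further glycolysis genes held 1 that rose, the enolase Eno2 (0.68 ± 0.15), and 2 that fell, Slc16a1 (-0.35 ± 0.09) and the ADP-dependent glucokinase Adpgk (-0.46 ± 0.11). Among 31 further hypoxia genes 4 rose and 1 fell. Plin2, a lipid droplet protein (0.80 ± 0.10), and Ddit4, an inhibitor of mTOR signalling that p53 also induces (0.82 ± 0.16), rose, and Arnt, the constant partner of HIF-1 alpha, fell by 0.45 ± 0.08 (adjusted p = 0.00939). Of 23 genes of pyruvate oxidation and the citric acid cycle 2 rose, both kinases of pyruvate dehydrogenase: Pdk4 (1.13 ± 0.12; adjusted p = 0.00149) and Pdk2 (0.32 ± 0.08), opposite to Pdk1. Of 6 pentose phosphate genes Pgls, the lactonase, rose by 0.40 ± 0.10.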

How the data were processed

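RNA was hybridised to Affymetrix arrays, and the authors deposited a table of log2 signals summarised by RMA, per the submitters' processing notes, which give no version. The 30 arrays of fibroblasts were used, and the tumour cell experiment was not used here. A probe set was named through the platform annotation, where 34958 of 45101 probe sets carry 1 gene symbol, 932 several and 9211 none. The 40% of probe sets with the lowest mean (limit 4.544) were left out. The 33 genes, the related lists and the comparisons were chosen with earlier results of these data known, so no pattern here is independent of them.

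Each comparison was fitted with limma 3.58.1 in R 4.3.3 over all 12674 tested genes, with Benjamini-Hochberg adjusted p-values and a call below 0.05. Each siRNA experiment was fitted with all its groups, and the viruses with time as a block. Errors are SE of log2 differences. Arrays carry no read depth, and their number limits the precision. Replicate numbers were checked for pairing: deviations of siHnrnpk and siControl arrays of 1 number correlated by 0.216, 0.166 and 0.209 over genes, all above 0.1, a hint of pairing from these values alone. Printed values come from the fit without pairs, and the replicate block is an alternative. In the same experiment the correlations with siControl were mixed in sign for siP53 (0.357, 0.359 and -0.186) and siLincp21 (-0.157, 0.315 and -0.206). These groups were taken to share only a number, as were those of the lincP21KD experiment. The method was tested on simulated data.

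Named genes follow a rule. Every member is accounted for. In each comparison called members are given, the 8 with the smallest adjusted p in full where there are more. Where under 4 were called, the next nearest are added, up to 4. Arrays are listed for up to 10 called members with siHnrnpk and between viruses, and each related list gives up to 4 called genes. Aldoa, Pgk1 and Ndrg1 were read from probe sets whose name marks possible cross-hybridisation, and Gapdh from a 3′ control probe set. Alternatives were other scalings, filters, probe set means, array weights, the replicate block and leaving out each array. The Actb covariate was added after seeing the data.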

Additional observations from a re-analysis of the deposited data

Results flagged for a closer look

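The effect of 1 siRNA differed between the 2 experiments, by a test of the difference itself, in 8 cases. For siP53, hnRNPKKD minus lincP21KD, these were Ankrd37 (-0.92), Egln3 (-0.85) and Vegfa (-0.83 log2). For siLincp21 they were Ankrd37 (-0.85), Bhlhe40 (-0.79), Hk2 (-0.73), Vegfa (-0.74) and Pfkfb4 (0.63). These were 10.0% of the 30 genes for siP53 and 16.7% for siLincp21. Of all tested genes 14.5% and 8.14% differed by the same tests. Among these calls, 2 for siP53 and 0 for siLincp21 were kept under every alternative run. The cause was not tested. Ankrd37 was dim in the lincP21KD experiment, at 5.34 to 5.93. No group held 4 or more arrays, so no array was tested as standing apart within its group.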

How the results depend on the processing

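Of 87 called values of the 30 genes, 36 kept their call under every alternative run, 51 lost it under 1 or more, and 0 reversed. Counts under alternatives, here and above, stand without the share of all tested genes called in the same fit. A changed count is therefore not read as particular to the 30 genes. Leaving out 1 array or time gave, as numbers of called genes, 4 to 5 for AdenoCre against AdenoGFP, 0 to 2 for the AdenoCre slope, 0 to 0 for the AdenoGFP slope and the slope difference, 0 to 4 for siP53 and for siLincp21 in the lincP21KD experiment, 7 to 17 for siP53, 12 to 17 for siLincp21 and 10 to 16 for siHnrnpk in the hnRNPKKD experiment, 11 to 15 for siHnrnpk against siP53, 3 to 12 against siLincp21, and 2 to 9 and 0 to 7 for the differences of the siP53 and siLincp21 effects. Without the time block 3 genes were called between viruses, and on log2(hours + 1) the AdenoCre slope called 0 (by limma; on hours 3 were called and 5 had an unadjusted p under 0.05). For siP53 in the lincP21KD experiment centring gave 1, quantile scaling 2 and no filter 2. Quantile scaling gave 3 for the difference of the siLincp21 effects, and probe set means 5 for that of the siP53 effects. Array weights gave 5 for siLincp21 in the lincP21KD experiment, 22 for siP53 in the hnRNPKKD experiment, 17 for siHnrnpk against siLincp21, and 15 and 11 for the differences of the siP53 and siLincp21 effects. The Actb covariate, chosen after seeing the data, gave 14 for siHnrnpk against siLincp21. The replicate block gave 15 for siHnrnpk, 13 against siP53, 11 against siLincp21, 16 for siLincp21 and 12 for siP53, 3 and 3 in the lincP21KD experiment, and 4 and 6 for the differences, each within 1.5 times of the main count. It ended the calls of Aldoc for siHnrnpk against siP53 (adjusted p = 0.0567) and of Slc16a3 (0.0765) and P4ha2 (0.0603) for siP53 in the lincP21KD experiment. Uncalled values that turned sign and passed were Tpi1 with siP53 (0.30, covariate) and, against siP53, Pfkl (0.19, array weights) and Ndrg1 (0.33, probe set means, and 0.22, covariate). The cause was not tested.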

Other observations

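The related lists showed other movements with the remaining siRNAs of the hnRNPKKD experiment. With siP53, Ldhb, the heart-type lactate dehydrogenase, was at -2.17 ± 0.11 log2 (limma adjusted p = 5.52e-08), while Slc2a3 was 1.43 ± 0.12 higher and Eno3, the muscle enolase, 1.34 ± 0.24 higher. In the lincP21KD experiment Ldhb was at -1.37 ± 0.10 and Eno3 0.97 ± 0.11 higher with siP53. With siP53, 4 of 6 pentose phosphate genes fell and 1 rose in the hnRNPKKD experiment, where 38.6% of all tested genes were called (19.3% higher, 19.2% lower), led by Pgls (-0.97 ± 0.14) and the transaldolase Taldo1 (-0.76 ± 0.16). In the lincP21KD experiment 1 of the 6 fell and none rose. With siLincp21, Slc2a3 was 2.07 ± 0.12 higher in the hnRNPKKD experiment, and Sdha, a succinate dehydrogenase subunit, was at -1.33 ± 0.13. In the lincP21KD experiment Slc2a3 was 0.80 ± 0.17 higher and Sdha at -0.41 ± 0.09. The peptide hormone precursor Adm was higher with siLincp21 in both, by 1.33 ± 0.17 and 1.00 ± 0.15.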
